A study of Mus musculus with 20 samples.

Results

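The genes described here are 10 genes of stratified epithelium, out of 35006 genes counted in mouse retina: the keratins Krt5, Krt12, Krt14, Krt15, Krt6a and Krt6b, the desmosome genes Dsp, Dsc3 and Dsg3, and the water channel gene Aqp3. They were selected on their measured values in these same libraries, as genes that were high together in single libraries, so their levels and their differences between groups are given as a description. All 10 were listed in all 20 files. N-acetyl-L-cysteine ethyl ester (NACET), a cell-permeable cysteine donor, was given to young and old wild-type C57BL/6J mice to ask how it acts on the aging retina. RNA of 1 retina of each mouse was sequenced as poly(A)-selected libraries.

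Young controls were 4 mice of 119 days and old controls were 4 mice of 668 days, neither of which received NACET. The 6 young NACET mice were labelled 119 or 129 days old, and in 1 of them the title and the batch label gave different ages. The 6 old NACET mice were 574, 581 or 668 days old, 2 of each age. NACET was dissolved in the drinking water at a daily dose of 50 mg/kg for 5 days. The labels gave 2 female mice in each young group and male mice otherwise, whereas the study's methods describe male mice. Old control replicate 4, labelled male, held 2473 CPM of Xist, transcribed from the inactive X chromosome, where the 4 libraries labelled female held 2106 to 2433 CPM and the other libraries labelled male at most 0.598 CPM. The drug was given to the whole animal, so the groups do not show which tissue took it up. Libraries held 17.7 to 31.1 M gene counts (M, 1e+06 counts), and values are counts scaled to 1e+06 gene counts per library (CPM). A single library with 0 counts of a gene still allows up to 3 counts, or 0.0965 to 0.169 CPM, depending on its depth. The summed CPM of 10 neural retina genes was 60100 to 90281 over the libraries, so each carried the labelled tissue.

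Keratins are the intermediate filament proteins of epithelia, and each filament pairs a type I chain (Krt12, Krt14, Krt15) with a type II chain (Krt5, Krt6a, Krt6b). Desmosomes are the spot junctions that hold neighbouring epithelial cells together: the cadherins Dsc3 and Dsg3 bridge the gap between cells and desmoplakin (Dsp) ties them to keratin. The neural retina is not a stratified epithelium and is not known for these genes, whereas the cornea at the front of the eye is covered by such an epithelium, in which Krt12 is the characteristic keratin. The conjunctiva, its neighbour, is known for Krt4, Krt13 and Krt19 and for goblet cells that make the mucin Muc5ac, and Krt15 is known from the limbus between the tissues. In whole-tissue RNA of this kind, fewer cells of a type and less RNA per cell cannot be told apart.

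Krt5 and Krt12, a type II and a type I chain, carried the most counts of the 10 genes, and the 250 bases before their transcription starts are shown because their levels ran side by side in most libraries. The sequences are from RefSeq (GRCm38.p6, on each gene's own strand), whose table held 5 of the 10 genes: Krt5, Krt12, Krt14, Dsp and Aqp3. The Krt5 window lies at chr15:101712906-101713155 and the Krt12 window at chr11:99422260-99422509, both on the minus strand. Capitals mark the letters of a TATA box (TATAAA, searched on the gene's strand), an AP-1 site (TGANTCA), an AP-2 site (GCCNNNGGC) and a CACCC box (CACCC), the last 3 searched on both strands.
Krt5 upstream: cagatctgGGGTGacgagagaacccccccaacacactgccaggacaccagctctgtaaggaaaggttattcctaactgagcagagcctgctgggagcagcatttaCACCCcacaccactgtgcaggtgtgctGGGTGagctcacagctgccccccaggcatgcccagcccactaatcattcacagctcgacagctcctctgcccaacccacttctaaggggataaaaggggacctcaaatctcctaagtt
Krt12 upstream: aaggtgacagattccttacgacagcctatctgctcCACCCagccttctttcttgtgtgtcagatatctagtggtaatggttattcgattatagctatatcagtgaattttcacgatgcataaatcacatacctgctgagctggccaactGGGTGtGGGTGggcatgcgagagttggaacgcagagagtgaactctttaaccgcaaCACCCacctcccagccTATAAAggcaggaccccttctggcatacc
TATAAA stood 29 to 24 bases before the Krt12 start and was not in the Krt5 window. It was found in 7.59% of all 32851 promoter windows of this length. The CACCC box occurred in both windows, as it did in 52.0% of all windows. TGANTCA and GCCNNNGGC, held by 6.75% and 13.7% of all windows, were in neither, which says only that these letters are absent from these 250 bases. No match overlapped another.

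The 10 genes were high together in 6 of the 20 libraries and low in the rest. A gene was counted as raised in a library where its CPM was over 4 times its own median over the 20 libraries. All 10 were raised in young NACET replicates 2 and 4 and in old control replicate 2, 9 in young NACET replicates 3 and 5, and 6 in old control replicate 4. No other library had more than 1 raised, and a limit of 5 of the 10 genes, chosen after these counts were seen, defines the 6 raised libraries below. They were 4 of 6 young NACET and 2 of 4 old control libraries, and none of 4 young control or of 6 old NACET libraries. By the age in the titles, 3 of 4 young NACET mice of 129 days and 1 of 2 of 119 days were raised. The summed CPM of the 10 genes was 54.1 to 488 in the raised libraries and 0.572 to 25.6 in the 14 others. The largest of the other sums belonged to old control replicate 3, which lay between the sets: with a limit of 2 times the median it was the 7th library, and with 8 times the median 4 libraries were left.

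**Figure D1:**
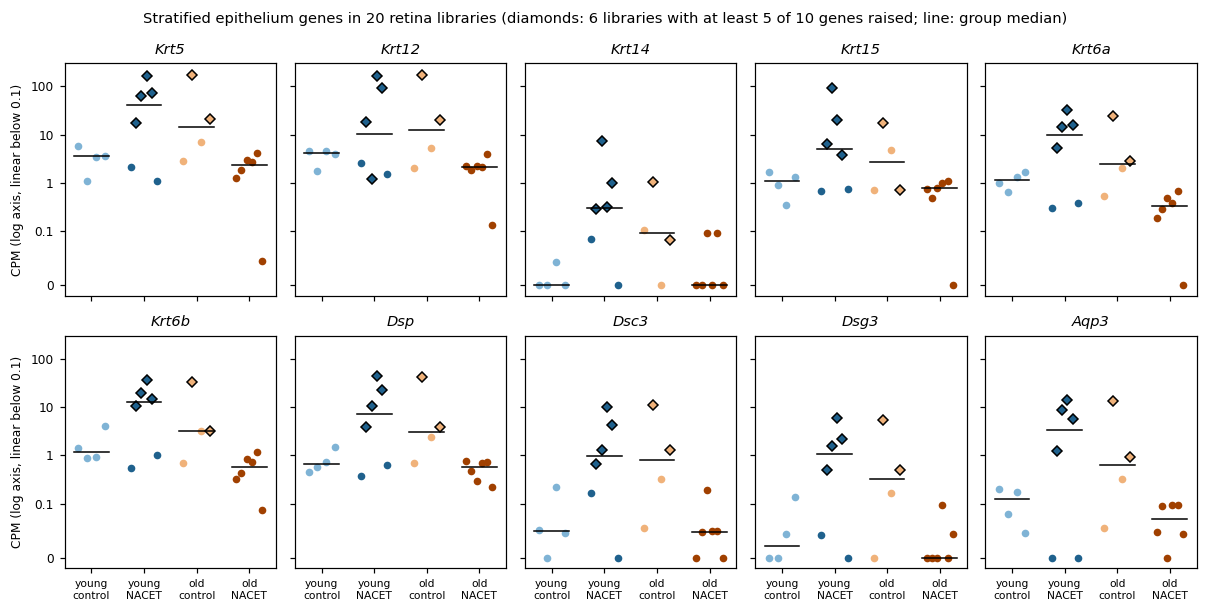
CPM of each of the 10 genes (vertical axis, logarithmic and linear below 0.1) in every library of the 4 groups (horizontal axis), with diamonds for the 6 raised libraries and a line at each group median. Old control replicate 2 and young NACET replicate 4 stand at or near the top for most genes, with Krt5 at 171 and 160.0 CPM, while Krt14 and Krt15 are highest in young NACET replicate 3, at 7.26 and 92.9 CPM.

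Krt5, the type II keratin of basal epithelial cells (mm9 chr15:101537501-101543322), was at 5.88, 1.09, 3.48 and 3.67 CPM in young controls 1 to 4. In young NACET libraries its lowest, median and highest levels were 1.08, 40.4 and 160.0 CPM. The 4 raised young NACET libraries were at 17.6 CPM or more, and replicate 1, at 2.16 CPM, lay within the young control range and replicate 6, at 1.08 CPM, just below it. In old controls 1 to 4 Krt5 was at 2.83, 171, 7.11 and 20.8 CPM. In old NACET libraries the lowest, median and highest levels were 0.0440, 2.31 and 4.14 CPM, so that old control replicate 1 lay within the old NACET range and the other three old controls lay above it. The lowest value, in old NACET replicate 6, was 1 count.

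Krt12, the type I keratin of corneal epithelium (mm9 chr11:99276980-99283573), was at 4.54, 1.77, 4.49 and 4.00 CPM in young controls 1 to 4. Its lowest, median and highest levels in young NACET libraries were 1.20, 10.4 and 161 CPM. Here the lowest was replicate 3, a library in which Krt5 was at 63.1 CPM. Old controls 1 to 4 held 2.07, 169, 5.25 and 20.0 CPM of Krt12, and old NACET libraries 0.132, 2.15 and 4.00 CPM at the lowest, median and highest. Apart from young NACET replicate 3, Krt12 followed Krt5 library by library. Krt12 was 49.0% to 55.5% of the summed Krt12 and Krt5 counts in the other 5 raised libraries, and 42.1% to 75% in the 14 libraries that were not raised, where the sum was 4 to 226 counts. In young NACET replicate 3 it was 1.87% (25 Krt12 and 1314 Krt5 counts, 95% exact Clopper-Pearson interval 1.21% to 2.74%). Intervals here cover counting error only. The span of Krt12, introns included, overlaps that of an annotated antisense transcript, A830036E02Rik, over 5304 bases. The counting ignored strand and used exons only. The overlap of exons was not measured, so any effect on the Krt12 counts is not known.

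Krt15, a type I keratin of basal cells (mm9 chr11:99993072-99997263), had another order of libraries. Young NACET replicate 3 held 92.9 CPM, and the next libraries were young NACET replicate 4 with 19.6 CPM and old control replicate 2 with 17.5 CPM. Young controls 1 to 4 were at 1.65, 0.886, 0.348 and 1.35 CPM. Old controls 1 to 4 were at 0.707, 17.5, 4.71 and 0.706 CPM, so replicate 4, raised in 6 other genes, was at the level of replicate 1 for Krt15. In old NACET libraries the lowest, median and highest were 0, 0.772 and 1.12 CPM. Of all Krt15 CPM summed over 20 libraries, 59.5% came from young NACET replicate 3.

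Krt14, the type I partner of Krt5 in basal epidermis (mm9 chr11:100064476-100068862), had the fewest counts of the 10 genes, 231 in all. Of these, 151 counts were in young NACET replicate 3, at 7.26 CPM. The next highest libraries were old control replicate 2 with 1.03 CPM and young NACET replicate 5 with 1.00 CPM. No counts of Krt14 were found in 9 libraries, all of them outside the 6 raised. In young controls 1 count was found in 1 of 4 libraries.

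Krt6a and Krt6b, type II keratins known from stratified and wounded epithelia, lie beside Krt5 on chromosome 15 (mm9 chr15:101520363-101524738 and chr15:101506465-101510720). Their coding sequences, of 1662 and 1665 bases in the GENCODE M1 annotation of mm9, were 97.6% identical, with 37 mismatches and 3 gap bases in the alignment. The coding bases 817 to 876 of each, the 60-base stretch without a gap that held the most mismatches, are shown because reads can be told apart only where such differences lie. Capitals mark the bases that differ, 10 in each.
Krt6a coding: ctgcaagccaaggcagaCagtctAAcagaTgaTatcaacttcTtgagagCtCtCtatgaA
Krt6b coding: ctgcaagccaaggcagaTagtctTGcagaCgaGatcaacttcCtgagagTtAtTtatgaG
Of all 50-base windows of the longest transcript, 49.0% in Krt6a and 47.3% in Krt6b also occurred in another gene's transcript, and 40.6% and 39.1% of 75-base windows did so. The share was 8.55% of 50-base windows in Krt5 and 14.4% in Krt14, 0.666% in Krt15 and 0.493% in Dsg3, and 0% in Krt12, Dsp, Dsc3 and Aqp3. The read length is not given in the sources used here. Reads that aligned in several places were set aside in the counting, so the counts of Krt6a and Krt6b are uncertain and low by an unknown amount. Krt6a was at 0.979, 0.644, 1.35 and 1.72 CPM in young controls 1 to 4, and at 0.544, 24.2, 2.08 and 2.82 CPM in old controls 1 to 4. Its lowest, median and highest levels were 0.297, 9.83 and 32.1 CPM in young NACET and 0, 0.341 and 0.682 CPM in old NACET libraries. Old control replicates 2, 3 and 4 lay above the old NACET range and replicate 1 lay within it. Krt6b ran from 0.551 to 36.8 CPM in young NACET and from 0.0880 to 1.17 CPM in old NACET libraries, with 4.09 CPM in young control replicate 4 and 32.7 CPM in old control replicate 2.

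Dsp, the desmoplakin gene (mm9 chr13:38243197-38290446), was at 0.464, 0.564, 0.740 and 1.49 CPM in young controls 1 to 4. In young NACET libraries the lowest, median and highest levels were 0.382, 7.09 and 43.0 CPM. Old controls 1 to 4 were at 0.707, 42.5, 2.41 and 3.82 CPM, and old NACET libraries at 0.220, 0.584 and 0.763 CPM for the lowest, median and highest. The 6 raised libraries, at 3.82 CPM or more, did not overlap the other 14, at 2.41 CPM or less. The span of Dsp overlaps that of the annotated antisense gene Gm10129 over 360 bases, and here too the overlap of exons was not measured.

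Dsc3 and Dsg3, the desmosomal cadherins of stratified epithelium, were near the counting floor outside the raised libraries. Dsc3 reached 11.2 CPM in old control replicate 2 and 9.90 CPM in young NACET replicate 4, was at least 0.678 CPM in each raised library, and was at most 0.328 CPM in the other 14, of which 4 held 0 counts. Dsg3 reached 5.97 and 5.44 CPM in young NACET replicate 4 and old control replicate 2. It was at least 0.498 CPM in the raised libraries and at most 0.164 CPM elsewhere, with 8 libraries at 0. Old NACET libraries held 7 counts of Dsc3 and 3 counts of Dsg3 in all 6 together.

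Aqp3, the aquaglyceroporin of epithelial membranes (mm9 chr4:41039755-41045216), was also separated between the sets. Its lowest level in a raised library was 0.914 CPM, in old control replicate 4, and its highest elsewhere was 0.328 CPM, in old control replicate 3. It reached 13.9 CPM in young NACET replicate 4, 13.1 CPM in old control replicate 2 and 8.51 CPM in young NACET replicate 3. Young control libraries held 11 counts and old NACET libraries 8 counts in all.

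Of the 10 genes, 6 (Krt5, Krt6a, Dsp, Dsc3, Dsg3 and Aqp3) were higher in each of the 6 raised libraries than in any of the 14 others, and Krt12, Krt14, Krt15 and Krt6b were not. Among 17701 other genes with at least 100 counts, 32 (0.181%) were separated in this way. The raised libraries were defined by the 10 genes themselves, so nothing is read from the comparison of these shares. Scaled by the exon length of each gene, as CPM per kilobase, Krt12 ranked first and Krt5 second of the 10 in 5 raised libraries, at 9.80 and 8.05 in young NACET replicate 2 and at 91.0 and 78.2 in old control replicate 2. In young NACET replicate 3 Krt15 ranked first at 52.0 CPM per kilobase, Krt5 second at 28.8 and Krt12 8th at 0.645.

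Young NACET replicate 3 also stood apart in genes outside the 10. Krt4, a keratin of mucosal epithelia such as the conjunctiva, was at 26.1 CPM there and at 0.721 CPM or less in the other 19 libraries. Expressed as a share of summed Krt4 and Krt5 counts, Krt4 was 29.3% (interval 27.2% to 31.4%) in this library and 0.150% to 3.41% in the other 5 raised libraries. Krt19 was 14.4% against 0.338% to 3.11% by the same measure, Krt15 was 59.5% against 3.28% to 26.9%, and Krt14 was 10.3% against 0.20% to 1.58%. Of 4 corneal differentiation genes measured in this way, 2 had a lower share than in the other 5 raised libraries and 2 lay within their range. Aldh3a1, the corneal crystallin-like aldehyde dehydrogenase, was 29.6% against 43.7% to 49.5%. Slurp1, a secreted protein gene of corneal epithelium, was 0.0760% (interval 0.00193% to 0.423%, from 1 count) against 8.23% to 11.4%. Calml3, at 31.4% against 23.9% to 37.1%, and Upk1b, a uroplakin gene, at 11.5% against 9.14% to 22%, were within the range. The hemidesmosomal collagen gene Col17a1 was 6.54% against 14.1% to 20.3%. The membrane mucin Muc4 of mucosal epithelia, at 45.8% against 14.2% to 67.1%, was within the range as well. Krt13, another mucosal keratin, was 31.1% in this library and 3.09% to 25.4% in the others, so its range lay closer.

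**Figure D2:**
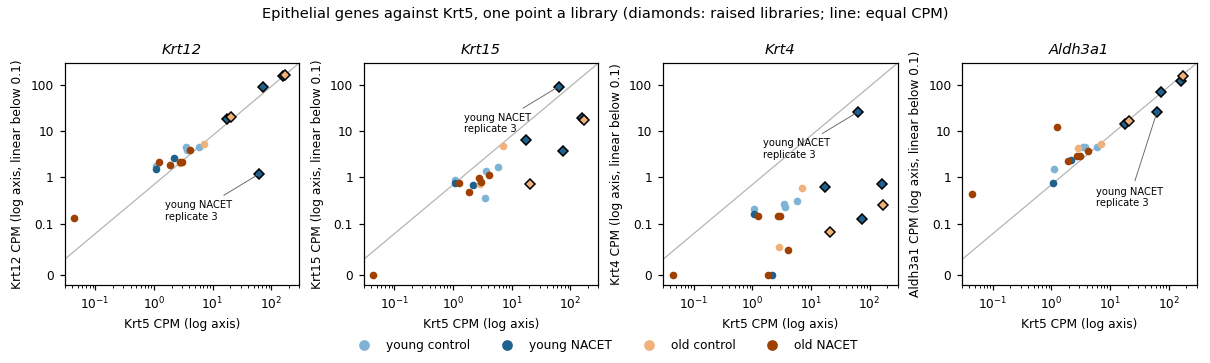
CPM of Krt12, Krt15, Krt4 and Aldh3a1 (vertical axes, logarithmic and linear below 0.1) against Krt5 CPM (horizontal axis, logarithmic), with 1 point for each library, diamonds for raised libraries and a grey line at equal CPM. Krt12 follows Krt5 in every library but young NACET replicate 3, which lies far below the line for Krt12 (1.20 CPM) and far above all other libraries for Krt4 (26.1 CPM).

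By Krt12, the name corneal therefore fitted 5 of the 6 raised libraries, and it went against Krt12 in young NACET replicate 3. Aldh3a1 was at 14.2 CPM or more in each raised library and at most 12.1 CPM elsewhere. Only its share beside Krt5 was lower in young NACET replicate 3. The defining conjunctival markers did not all move with Krt4 there: the goblet cell mucin Muc5ac was at 1 count in young NACET replicate 3 and at most 0.193 CPM in any library. Of the conjunctival and mucosal list, Krt7 (11.5 CPM), Krt8 (1.15 CPM) and Muc1 (4.37 CPM) were highest in young NACET replicate 3, as were Krt4, Krt13 and Krt19. The other genes of that list, Muc5ac among them, were highest in other libraries. The list's summed CPM was 183 in young NACET replicate 3 and 182 in young NACET replicate 4. The epidermal keratins Krt1 and Krt10 and loricrin (Lor) were at 1.01 to 2.28, 7.91 to 10.0 and 0.958 to 2.77 CPM over the 20 libraries, with raised and other libraries overlapping. Keratocan (Kera), the defining proteoglycan of corneal stroma, was at most 0.193 CPM. Trp63, the master transcription factor of stratified epithelium, was at 0.282 to 4.15 CPM in raised libraries and 0.155 to 0.731 CPM in the others, which overlap.

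Of the lists of other tissues and cell structures, the corneal differentiation genes were the most like the 10. Of its 10 genes, 9 had at least 100 counts and 7 of these lay higher in all 6 raised libraries than in the other 14. The summed CPM was 36.5 to 314 in raised libraries and 3.78 to 22.2 in the others. Aldh3a1 was at 14.2 to 157 CPM in raised libraries and at most 12.1 CPM elsewhere, and Calml3, a calmodulin-like protein of differentiating epithelium, was at 6.56 to 61.1 CPM against at most 6.19 CPM. Psca, a surface antigen of epithelia, overlapped between the sets, with 1.59 CPM in young NACET replicate 3 and 5.95 CPM in young control replicate 4. Of 11 desmosome and junction partners with enough counts only Evpl, the envoplakin gene, was separated (10.4 to 45.8 CPM against at most 10.3 CPM), and plakoglobin (Jup), at 30.1 to 63.5 against 29.8 to 44.1 CPM, was not. Of 10 epithelial transcription factors only Ehf was separated. None of the counted genes of the hemidesmosome (7), conjunctival (10), epidermal (3), stromal (8), endothelial (3), lens (12), pigment epithelium (10), muscle (3), blood (4) and neural retina (10) lists were separated. Some of the conjunctival genes were still higher in most raised libraries. Muc4 had a median of 44.6 CPM in the raised libraries and 0.901 CPM in the others, and Krt13 10.9 and 0.660 CPM. Krt18, at 50.5 and 47.6 CPM, differed little. The wound keratin list summed to at most 0.913 CPM, in young NACET replicate 3, and had no gene with 100 counts.

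**Figure D3:**
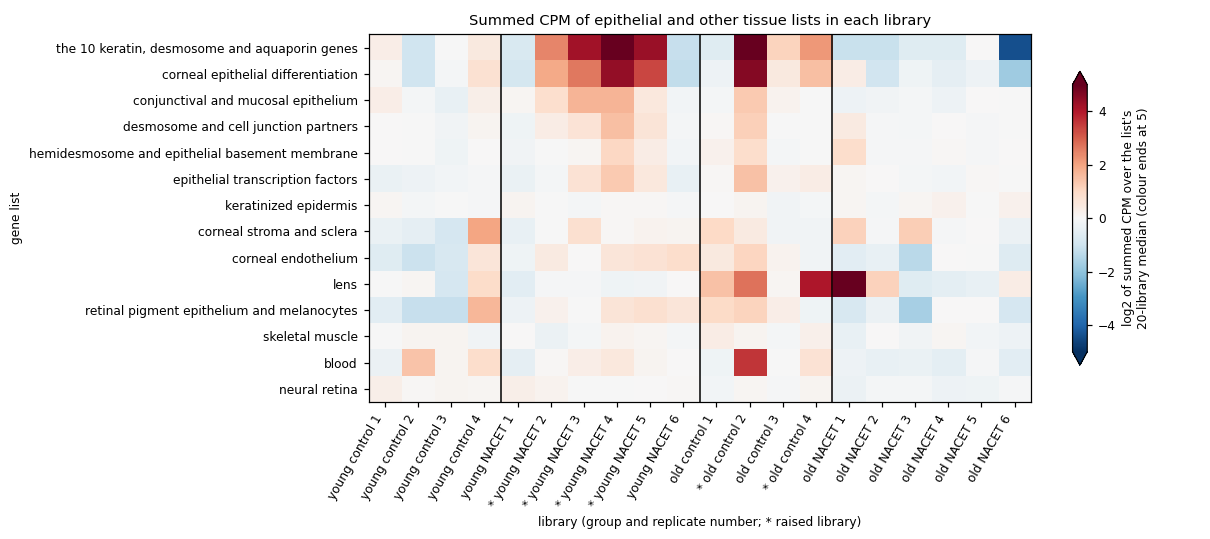
Summed CPM of the 10 genes and of 13 other lists (rows) in the 20 libraries (columns, raised libraries with a star), as the log2 ratio to each list's median over the libraries. The corneal differentiation list has the same dark columns as the 10 genes, and the lens list peaks in old NACET replicate 1, where the 10 genes are not raised.

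Other tissues did not all rise in the same libraries as the 10 genes. The summed CPM of 12 lens genes was 11892 in old NACET replicate 1, a library with Krt5 at 1.24 CPM, and 23.0 CPM in old control replicate 4, the highest of the raised libraries. Alpha-A crystallin (Cryaa) was at 4895 and 12.1 CPM in these libraries. The 10 pigment epithelium and melanocyte genes summed to 254 CPM in young control replicate 4, with Dct at 60.1 CPM, and to 175 CPM in old control replicate 2. The stromal list was highest in young control replicate 4, at 57.4 CPM. The blood list was at 80.1 CPM in old control replicate 2, with the beta-globin gene Hbb-b1 at 47.6 CPM, and at most 18.4 CPM in any other library. The part of these tissues in the levels of the 10 genes was not tested.

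By likeness of pattern, measured as Pearson's r of log2 CPM with the mean of the 10 genes over 20 libraries, the nearest of 17701 other genes included Trim29 (r = 0.98), Calml3 (0.97), 2310043J07Rik (0.97), Tmprss11bnl (0.96), Lypd3 (0.95), Cyp4a12b (0.95), Adh1 (0.95), Gsto1 (0.95) and Mal (0.95). These are descriptions over points that share their libraries and depth. Trim29, a keratin-binding TRIM protein of stratified epithelium, was at 1.98 to 16.2 CPM in the raised libraries and at most 0.876 CPM in the others. Gsto1, a glutathione transferase, was the most abundant of them, at 31.1 to 236 CPM in raised libraries and 10.0 to 49.3 CPM elsewhere. Among the 10 genes, each set against the mean of the other genes, r was 0.93 to 0.97 for Krt5, Krt6a, Krt6b, Dsp, Dsc3, Dsg3 and Aqp3, 0.84 for Krt15, 0.81 for Krt12 and 0.78 for Krt14. Without old control replicate 2 and young NACET replicate 4, the libraries farthest from the median level, r of Krt12 was 0.66.

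NACET in young mice was compared between 4 control and 6 NACET libraries with edgeR's quasi-likelihood test across 16588 genes. By title all 4 controls were 119 days old and 4 of the 6 NACET mice 129 days, so labelled age and treatment cannot be fully told apart. Of the 10 genes, 9 passed the filter on low counts and Krt14 did not. Genes that reach the filter through the libraries in which they are high were bound to differ, so the counts that follow are descriptions. All 9 fitted changes were positive, from 2.89 (SE 0.89) for Krt6b to 5.20 (SE 1.40) for Aqp3 on the log2 scale. Krt5 was 3.53 ± 1.96 CPM (SD, n = 4) in controls and 53.0 ± 60.9 CPM (SD, n = 6) under NACET, and the SD over the NACET libraries exceeded their mean. None of the 9 passed an adjusted p under 0.05, as none of the 16588 genes did (0%), and 9 had an unadjusted p under 0.05, where 2.19% of all genes had one and were higher. Their adjusted p in edgeR was 1.00 each, and DESeq2 called 0 of the 10 as well. Without the 4 raised young NACET libraries, 2 NACET libraries remained and 6 genes passed the filter, all with negative fitted changes from -1.74 (Krt6a, SE 0.48) to -0.50 (Krt15, SE 0.52). The raised libraries were defined by these same genes, so the loss of the positive changes follows from leaving them out. Here and in the other comparisons, values without the raised libraries are given as a description.

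Aging was compared between the 4 young and 4 old control libraries across 16484 genes, of which 180 (1.09%) passed as higher. Of the 10 genes, 6 were tested (Krt5, Krt12, Krt15, Krt6a, Krt6b and Dsp) and none passed. Their fitted changes were all positive, from 2.46 (Krt6b, SE 0.95) to 3.93 (Dsp, SE 1.11), with edgeR adjusted p from 0.107 to 0.228. All 6 had an unadjusted p under 0.05, as did 9.06% of all genes tested in that direction. Without old control replicate 2 the median of the 6 changes went from 3.21 to 1.09, and without replicate 4, the library whose Xist level went against its label, it was 3.47. Without both raised old controls the changes were -0.07 (Krt12, SE 0.43) to 1.32 (Krt15, SE 0.65), and Krt5 was at 0.44 (SE 0.53). DESeq2 called 3 of the 10 genes here, beside 4.5% of all genes it adjusted.

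NACET in old mice was compared between the same 4 old controls and 6 old NACET libraries across 16562 genes, of which 47 (0.284%) passed as lower. The same 6 of the 10 genes were tested, and 5 passed: Krt5 (-4.61, SE 0.93, edgeR adjusted p 0.0456), Krt12 (-4.64, SE 0.95, adjusted p 0.0489), Krt6a (-4.52, SE 0.89, adjusted p 0.0456), Krt6b (-4.13, SE 0.85, adjusted p 0.0489) and Dsp (-4.62, SE 0.92, adjusted p 0.0456). Krt15 was at -3.18 (SE 0.79, adjusted p 0.0859). All 6 had an unadjusted p under 0.05 and were lower, as did 7.77% of all genes tested. The genes were chosen with this contrast known, so nothing is read from 5 of 6 against the background. Krt5 was 50.5 ± 80.9 CPM (SD, n = 4) in old controls and 2.18 ± 1.44 CPM (SD, n = 6) in old NACET libraries, and 84.8% of the summed control CPM was in old control replicate 2. Dsp was 12.4 ± 20.1 CPM (SD, n = 4) and 0.529 ± 0.234 CPM (SD, n = 6). Without old control replicate 2 no member of the 10 passed, and the median of the 6 changes went from -4.57 to -2.18. Without old control replicate 4, and without each of the 6 old NACET libraries in turn, no member passed either, with medians of -4.83 to -4.29. Without old control replicate 1 or 3, 6 and 5 passed. With both raised old controls left out, leaving 2 controls, none passed and the changes were -1.98 (Krt15, SE 0.64) to -0.82 (Krt12, SE 0.56). All old controls were 668 days old, and with only the 2 old NACET mice of that age the 9 genes tested were all lower, with a median of -5.00 (-8.23 to -3.30). None of the 9 passed there, as none of all 16839 genes did. DESeq2 called 6 of the 10 in the full comparison, the same 5 and Dsc3, beside 2.25% of all genes it adjusted. Old control replicate 2 also had the highest blood list sum, given above, and its part in the result was not tested.

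**Figure D4:**
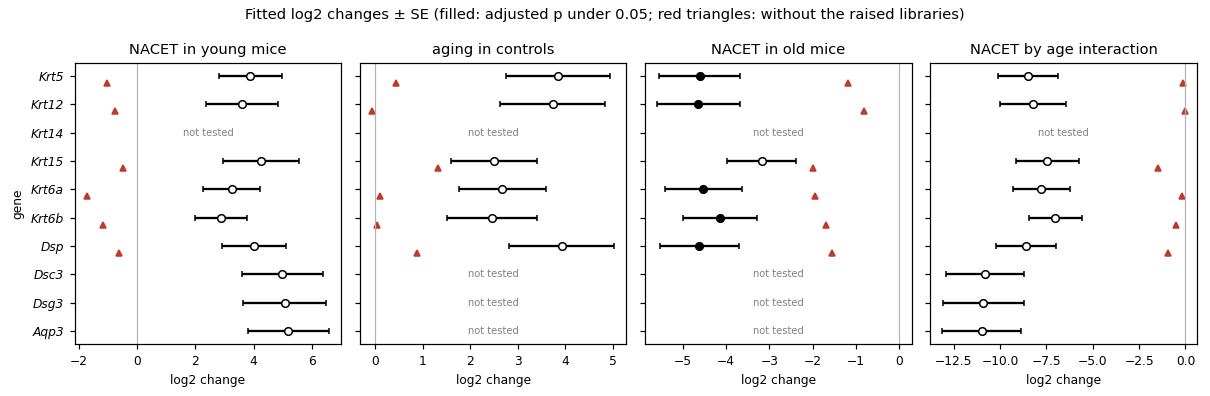
Fitted log2 changes (horizontal axes, points with SE bars) of the 10 genes (rows) in the 4 comparisons, filled where the edgeR adjusted p was under 0.05, with red triangles for the fit without the raised libraries. With all libraries the changes run from 2.89 to 5.20 in young NACET mice and from -4.64 to -3.18 in old NACET mice, and without the raised libraries they run from -1.74 to -0.50 and from -1.98 to -0.82.

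The aging and the old NACET comparison share the 4 old controls, so their values are not independent of each other. Old control replicate 2 was among the 3 highest libraries for all 10 genes. Whether the NACET difference varied with age was fitted as an interaction over all 20 libraries. The 9 genes tested had interaction terms of -7.02 (Krt6b, SE 1.41) to -10.99 (Aqp3, SE 2.12) on the log2 scale and edgeR adjusted p of 0.0678 to 0.0949, and none passed, as none of 16993 genes did (0%). All 9 had an unadjusted p under 0.05, where 3.93% of all genes had one with a negative term. DESeq2 called all 10, beside 0.422% of the genes it adjusted. Without all raised libraries 6 genes were tested and the terms were -1.49 (Krt15, SE 1.06) to -0.04 (Krt12, SE 0.85).

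**Figure D5:**
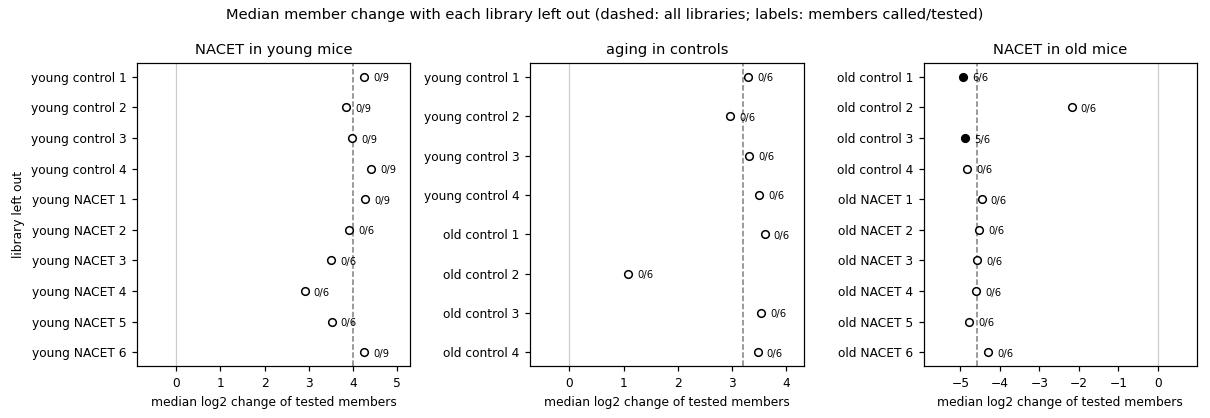
Median log2 change of the tested genes among the 10 (horizontal axes) with each library left out in turn (rows), with the number passing over the number tested beside each point, filled where any passed, and a dashed line at the median with all libraries. In old NACET mice the point without old control replicate 2 lies at -2.18 and the others at -4.94 to -4.29; in aging the same library gives 1.09.

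Fitted changes of the corneal differentiation genes, among them Aldh3a1, Calml3, Trim29 and Psca, had the signs of the 10 genes wherever they were tested, with 1 call in all. Trim29 was not tested in old NACET mice. Of the 10 corneal differentiation genes, 8 were tested in young NACET mice, all 8 were higher with a median change of 2.79 and none passed. In aging 7 were tested, 7 were higher with a median of 2.87 and none passed. In old NACET mice 5 were tested, 5 were lower with a median of -3.57, and Psca passed (-4.31, SE 0.83, edgeR adjusted p 0.0448). The medians of all genes tested were within 0.1 of 0 on this scale. The epidermal list, which holds keratins of dry skin, had medians of 0.07, -0.07 and 0.04 in the same order, with 3 genes tested each time. In old NACET mice several lists of other tissues had negative fitted changes beside those of the 10 genes, and none of their genes passed. All 10 pigment epithelium and melanocyte genes were lower, 8 of them at an unadjusted p under 0.05 in edgeR, with a median of -1.08. Of all 16562 genes tested, 7.77% were lower at that p. The 4 blood genes tested were lower, all 4 at that p, with a median of -2.45, and so were the 3 corneal endothelium genes, with a median of -1.04. The 8 epithelial transcription factors tested were lower, 4 of them at that p, with a median of -0.52. The 6 conjunctival genes tested were lower too, 3 of them at that p, with a median of -0.54. The 3 lens genes tested went the other way, with a median of 7.48, and the lens sum was highest in old NACET replicate 1. The part of these tissues in the changes of the 10 genes was not tested.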

How the data were processed

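Per the labels and the study's methods, the authors prepared poly(A) libraries with a kit that does not mark strand, sequenced single-end reads, aligned them to mm9 with TopHat2 2.1.0 and deposited raw counts of reads per gene made with HTSeq 0.11.2, ignoring strand. The gene annotation and read length are not given in the sources used here. The deposited counts were used unchanged. Rows that name no gene were left out of library sizes: reads in no feature were 14.1% to 20.5% of each file's total, ambiguous reads 1.09% to 1.20%, reads aligned in several places 6.65% to 7.92%, and a nameless row at most 0.00218% of the gene counts.

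Groups followed the library names in the labels. No pair of libraries of 1 group was identical (42 pairs, chi-square per degree of freedom 2.52 or more). The labels describe separate mice. The 10 genes and all lists were chosen with earlier results of these data known. Genes named outside the 10 were the 10 with the highest r with their mean, the 3 with the highest CPM in any library of each list, and defining markers of epithelial and eye tissues, among them Krt4, Krt13, Muc5ac, Krt1, Krt10, Lor, Aldh3a1, Kera, Trp63, Cryaa and Rpe65. A few genes that this rule names are not reported here. Krt7, Krt8, Krt19, Muc1, Slurp1, Upk1b, Ehf, A830036E02Rik, Gm10129 and Xist were added after their values were seen. Gene positions and transcripts are GENCODE M1 on mm9, matched by symbol for 136 of 137 genes and counted from 1.

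The quasi-likelihood test of edgeR 4.0.16 (R 4.3.3) was run on counts that passed its default filter, scaled by TMM, with Benjamini-Hochberg adjustment over all genes tested and calls at an adjusted p under 0.05. Each comparison used its own groups and the interaction all 20 libraries. SE is the size of the log2 change divided by the root of the F statistic. DESeq2 1.42.0 was an alternative, as were RLE normalization, other count filters, a robust fit, a replicate block, labelled ages and sexes, and each library left out. The script was tested on simulated data with known changes. Levels used pandas 2.3.3 and Python 3.11.15, and log2 CPM for likeness used a prior count of 1. At these depths 3 counts correspond to at most 0.169 CPM.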

Additional observations from a re-analysis of the deposited data

Results flagged for a closer look

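In 14 of 40 sets, each of 1 gene in 1 group, 1 library stood apart from the others by Dixon's test at the 95% level. The rate of about 1 in 20 such groups holds for normally distributed values, and these skewed CPM, with many at 0, need not follow it. The 10 genes also share their libraries, and they were chosen for being high in single libraries, so the number is a description.

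Old control replicate 2 was the highest of its group of 4 for all 10 genes, and passed this test for 9: Krt5 (171 CPM, the next library 20.8 CPM), Krt12 (169 CPM), Krt14 (1.03 CPM), Krt6a (24.2 CPM), Krt6b (32.7 CPM), Dsp (42.5 CPM), Dsc3 (11.2 CPM), Dsg3 (5.44 CPM) and Aqp3 (13.1 CPM). Krt15, at 17.5 CPM in that library, did not pass it. Young NACET replicate 3 stood apart in its group of 6 for Krt14 (7.26 CPM) and Krt15 (92.9 CPM), and young NACET replicate 4 for Dsg3 (5.97 CPM). The sets of Krt14 in young control replicate 3 (0.0436 CPM) and Dsc3 in old NACET replicate 3 (0.195 CPM) rested on 1 and 4 counts.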

How the results depend on the processing

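With all libraries and edgeR, 5, 0, 0 and 0 of the 10 genes passed in old NACET, young NACET, aging and the interaction, and 1, 0, 1 and 0 genes of the other lists. In old NACET the count of the 10 was 9 with no filter, 3 with a filter of at least 1 CPM, 6 with DESeq2, and 0 with a robust fit, with a replicate block, in 668-day mice only and without all raised libraries (the last chosen after seeing the data, and defined by these genes). The median change in these last 4 was -4.57, -3.67, -5.00 and -1.62, and 112, 17, 0 and 0 of all genes passed. The count of the other lists there was 13 with DESeq2 and with no filter, and 0 with the 1 CPM filter, the robust fit, the replicate block, the 668-day mice and without all raised libraries. In young NACET the replicate block gave 2 and 1. In aging DESeq2 gave 3 and 3, no filter 3 and 4, and labelled males only 4 genes of the other lists. In the interaction DESeq2 gave 10 and 16 and no filter 9 and 9. With libraries left out in turn, the count of the 10 was 0 to 6 in old NACET, 0 to 0 in young NACET and aging, and 0 to 9 in the interaction, and that of the other lists 0 to 13, 0 to 3, 1 to 5 and 0 to 15. In the interaction 9 passed when young NACET replicate 1 or 6 or old control replicate 1 was left out, 7 when it was old control replicate 3, and 2 when it was young control replicate 4. The cause of these changes was not tested.

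Without all raised libraries, which were defined by these genes, the changes in young NACET were -1.04 for Krt5, -0.78 for Krt12, -0.50 for Krt15, -1.74 for Krt6a, -1.18 for Krt6b and -0.63 for Dsp, and that of Krt12 in aging was -0.0714. No other alternative turned the direction of a change among the 10 genes. By Spearman's rho 5 of the 10 most like genes were shared. Replicate numbers did not pair libraries: the deviations of same-numbered libraries correlated at -0.15 to 0.11, and 0 of 8 libraries in old NACET, 1 of 8 in young NACET and 0 of 8 in aging correlated best with their own number. The replicate block moved the count over all genes from 90 to 17, from 0 to 6 and from 234 to 163.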
